A study of Mus musculus with 12 samples.

Results

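The genes described here encode 6 families of proteins that cut introns out of pre-mRNA or coat the RNA while this happens. They were taken by their symbols, which begin with Prpf, Lsm and a digit, Sf3a or Sf3b, Snrp, Srsf or Hnrnp. The rule found 74 of the 23420 gene symbols in each count table. There were 12 Snrp, 12 Lsm, 8 Sf3, 13 Prpf, 11 Srsf and 18 Hnrnp genes. The study asked whether loss of Siah2, which encodes a ubiquitin ligase, alters liver transcripts in either sex. Livers of C57BL/6 mice about 20 weeks of age were collected at ZT10, that is, 10 hours after lights on, and mRNA was counted with the Lexogen QuantSeq 3′ kit. The 4 groups were wild type females (WTF), Siah2 KO females (KOF), wild type males (WTM) and Siah2 KO males (KOM), with 3 mice in each. The study's methods state that wild type and homozygous KO mice were kept as related separate lines after an intercross of heterozygotes, so genotype and line cannot be told apart. Per the sample labels, equal amounts of RNA from 3 mice were combined, whereas the methods and the series design describe individual livers. If pools were used, the p-values below measure the spread between pools.

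Splicing is carried out by the spliceosome, which assembles from small nuclear ribonucleoproteins (snRNPs), each a small RNA with its proteins. Snrp genes encode the Sm ring and other snRNP proteins, Lsm genes encode related rings that hold U6 and U7 RNA or act on cytoplasmic mRNA, and Sf3 genes encode the part of the U2 snRNP that grips the branch point. Prpf proteins take part in assembly, rearrangement or the cutting steps. Srsf (SR) and Hnrnp proteins bind exons and introns and influence which splice sites are used. Most of these genes are expressed in every nucleated cell, the hepatocytes that make up most of the liver included. The libraries count 1 tag near the 3′ end of a transcript, so they measure transcript abundance and do not measure splicing.

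Between 1293688 and 4056144 tags per mouse were counted on genes, and the members held between 0.473% and 0.648% of them. Levels are given as CPM, counts per 1000000 of the TMM-scaled library, a scale on which a longer transcript has no more tags than a shorter one. Wild type female 1091 stood apart from the other females. It had the lowest scaling factor of the 12 libraries (0.901), and a quality weight of 0.181 where those of the other 5 females lay between 1.03 and 1.75. It was the highest of the 12 libraries for 15 and the lowest for 21 of the 68 members tested, where 18.3% and 21.6% of all genes tested had it at these places. The common biological coefficient of variation of the females was 0.286 with this library and 0.191 without it, against 0.189 in males, and counts of calls in females are therefore given with and without it. Values of single genes are with all 6 females unless stated. The hepatocyte markers Alb, Apoa1, Ttr, Serpina1c, Cyp2e1, Cps1, Hnf4a and Tat were all detected, with 28651 to 43299 CPM in sum. The markers of Kupffer and other immune cells summed to 396 to 539 CPM in WTF, 304 to 745 in KOF, 73.0 to 539 in WTM and 91.9 to 191 in KOM. Of the 11 listed symbols 10 were detected, and the other, Adgre1, was not among the gene symbols counted. Endothelial markers (5 of 5 detected) summed to 204 to 301 CPM in females and 156 to 215 in males. Stellate cell markers (5 of 5) summed to 173 to 360 and 131 to 229 CPM, and bile duct markers (5 of 5) to 9.87 to 45.1 and 27.8 to 56.3 CPM. Of the red blood cell markers only Alas2 was detected, at 8.47 to 25.2 CPM in females and 83.9 to 154 in males. The part of these cells in the results below was not tested. Xist and the Y-linked genes Ddx3y, Eif2s3y, Kdm5d and Uty followed the labelled sex. In whole liver, fewer cells of a type and less RNA per cell cannot be told apart. Siah2 itself was counted at 17.0, 12.3 and 11.5 CPM in WTF, 10.0, 12.5 and 9.63 in KOF, 16.8, 27.1 and 21.4 in WTM and 9.42, 17.4 and 15.0 in KOM, and passed no test in either sex (edgeR log2 fold change −0.34 ± 0.30 in females, adjusted p = 0.641, and −0.67 ± 0.29 in males, adjusted p = 0.9999). Where its tags lie relative to the deleted part is unknown, and these values do not check the genotype.

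Promoters of 3 of the members with a RefSeq start site are shown. Hnrnpm and Lsm10 were called by DESeq2 in the comparison of females below, in opposite directions, while Srsf2, the most abundant SR gene, was called by neither edgeR nor DESeq2 with all females and by DESeq2 without 1091. Each window runs from 250 bases before to 50 bases after a RefSeq start site on the GRCm38.p6 assembly, the same build as the mm10 named in the labels, and is written on the strand of the gene. Capitals mark matches on either strand to the letters of an E-box (CACGTG), the ETS core (CCGGAA), the CCAAT box (CCAAT), the TATA box (TATAAA), the GC box (GGGCGG) or the core that nuclear receptors can bind (AGGTCA). The Hnrnpm window is chr17:33685409-33685708, minus strand, the Srsf2 window chr11:116853045-116853344, minus strand, and the Lsm10 window chr4:126096403-126096702, plus strand.
Hnrnpm: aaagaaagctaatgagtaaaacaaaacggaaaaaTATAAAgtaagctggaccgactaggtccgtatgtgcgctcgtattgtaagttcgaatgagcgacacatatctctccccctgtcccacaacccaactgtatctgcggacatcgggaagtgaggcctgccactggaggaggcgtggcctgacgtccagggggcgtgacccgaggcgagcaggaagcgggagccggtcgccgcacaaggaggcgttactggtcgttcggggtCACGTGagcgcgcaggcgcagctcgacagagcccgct
Srsf2: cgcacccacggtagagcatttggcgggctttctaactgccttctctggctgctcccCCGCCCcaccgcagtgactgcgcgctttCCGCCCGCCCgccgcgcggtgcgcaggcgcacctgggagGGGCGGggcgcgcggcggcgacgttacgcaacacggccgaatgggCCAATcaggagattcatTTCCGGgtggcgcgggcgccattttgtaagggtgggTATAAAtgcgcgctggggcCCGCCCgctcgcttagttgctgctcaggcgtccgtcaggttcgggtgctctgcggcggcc
Lsm10: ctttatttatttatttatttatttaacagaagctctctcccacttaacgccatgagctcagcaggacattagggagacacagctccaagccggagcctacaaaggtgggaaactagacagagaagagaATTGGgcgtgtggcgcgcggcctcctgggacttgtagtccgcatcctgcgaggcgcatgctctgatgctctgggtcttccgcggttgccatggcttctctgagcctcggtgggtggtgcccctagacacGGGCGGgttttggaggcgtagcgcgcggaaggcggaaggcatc
The Hnrnpm window holds 1 E-box and 1 TATA box. The Srsf2 window holds 5 GC boxes, a pair of which overlap, with 1 CCAAT box, 1 ETS core and 1 TATA box, and the Lsm10 window holds 1 CCAAT box and 1 GC box. RefSeq start sites were matched for 64 of the 74 members, with 86 windows between them. The GC box was in 66.3% of the 86 windows against 35.7% of all 32851 promoters, and the ETS core in 43.0% against 14.9%. The E-box, the element that the clock proteins CLOCK and BMAL1 can bind, was in 12.8% against 7.15%. The CCAAT box was in 47.7% against 37.4%, the TATA box in 8.14% against 13.6% and the nuclear receptor core in 11.6% against 16.3%. These matches describe letters in a window and no binding was measured.

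The families differed widely in level. The most abundant members were Hnrnpk, which binds runs of C, with a mean of 450 CPM over the 12 libraries, Hnrnpm (394), Hnrnpa2b1 (380), Hnrnpu (353), Srsf2 (298) and Lsm6 (287). At the other end, Snrpn and Srsf12 had no tag in any library. Hnrnpa1, Hnrnph3, Snrpf and Hnrnpul1 had 3, 11, 13 and 52 tags over all 12 libraries. Hnrnpa1 is abundant in most tissues and has many processed pseudogenes, and how the authors treated tags shared with near-identical copies is not stated. The α- and β-globin genes Hba-a1, Hba-a2, Hbb-b1 and Hbb-b2, which are also near-identical pairs, were likewise listed at 0 in all 12 libraries. The 6 members named here with few or no tags did not pass the filter on low counts, which left 68 members tested among females and in the fit of all groups. In males the filter also removed Prpf38a, Sf3b4 and Snrpa, which left 65.

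Summed over their members, the Hnrnp, Prpf and Srsf families were at their lowest in wild type females. The 18 Hnrnp genes together held 2017, 2187 and 1934 CPM in WTF (2046 ± 129, SD, n = 3) and 2882, 2909 and 2890 CPM in KOF (2894 ± 13.6). They held between 2552 and 2925 CPM in WTM and between 2420 and 2665 CPM in KOM, so each WTF library lay below each of the other 9. The same order was seen for Prpf, with 621, 672 and 679 CPM in WTF, 947, 866 and 799 in KOF and 770 to 1073 over the 6 males.

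Srsf sums were 897, 975 and 705 CPM in WTF and 982, 1118 and 1139 CPM in KOF, and 1065 to 1192 CPM in males. The lowest KOF library was close to the highest WTF library here. Sf3 sums were 444 to 487 CPM in WTF, 416 to 458 in KOF and 363 to 410 in the 6 males, so both female groups lay above the males. Lsm and Snrp sums overlapped between WTF and KOF, with 403 to 772 against 506 to 658 CPM for Lsm and 514 to 689 against 422 to 578 CPM for Snrp. The upper end of WTF was female 1091 in both. All 74 members together held 4908 to 5325 CPM in WTF, 6218 to 6464 in KOF, 5826 to 6408 in WTM and 5662 to 6078 in KOM. A sum is weighted to its most abundant members and no test was made of it.

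**Figure D1:**
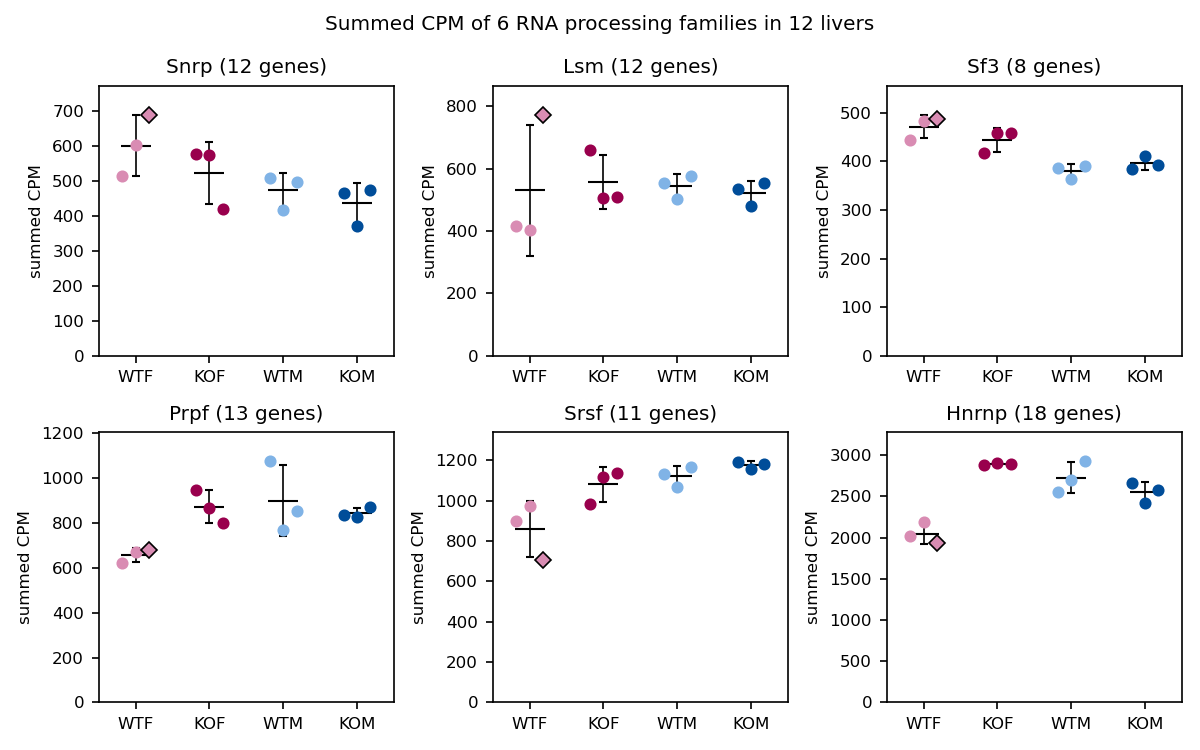
Summed CPM of the 6 families in each of the 12 livers, with the mean and SD of each group as a black bar and whiskers and WTF 1091 as a diamond outlined in black. The 3 WTF points lie below all other points for Hnrnp (1934 to 2187 CPM) and Prpf (621 to 679 CPM), and above the males for Sf3.

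The comparison of KOF with WTF asked which members differed with genotype in females. With all 6 females, 0 of 68 members passed edgeR's quasi-likelihood test at an adjusted p under 0.05, and so did 0 of all 9465 genes tested (0%). The smallest adjusted p of a member was 0.0793, for both Prpf18 and Lsm14a. At an unadjusted p under 0.05 there were 11 higher members (7.3% of all genes) and 4 lower (8.31%), together 22.1% of the 68 beside 15.6% of all genes. DESeq2 called 6 of the 61 members it kept, with 5 higher (2.2% of its genes) and 1 lower (1.59%) in KOF, beside 3.8% in all. Without WTF 1091, edgeR called 15 of 68 members, 12 higher (5.21% of genes) and 3 lower (4.43%), beside 9.64% of 9709 genes in all, and DESeq2 called 13 beside 10.6%. The median log2 fold change of the members was 0.058 with all females and 0.14 without 1091, against −0.035 and −0.0070 over all genes. KOF and WTF did not overlap for 13 members that were higher in KOF (11.4% of all genes) and for 6 that were lower (11.9%), which is 19.1% and 8.82% of the 68.

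The members that rose by DESeq2 with all females were Prpf18, Lsm14a, Hnrnpa2b1, Hnrnpm and Hnrnpul2, and Lsm10 fell. The first 5 were called in each of 6 settings, namely DESeq2, edgeR without 1091, DESeq2 without 1091, the edgeR fit of all 4 groups, limma-voom with quality weights and edgeR without a filter. These were the settings that called any member. The filtered edgeR fit of all 6 females called no member and no other gene, and neither did RLE scaling or at least 10 counts in every library. The fit of all 4 groups called 10 members (4.35% of genes), limma-voom 16 (11.2%) and edgeR without a filter 6 (2.82%). Lsm10 was called in 5 of the 6 settings, since DESeq2 without 1091 gave it an adjusted p of 0.0669. In all, 18 members were called in at least 1 of the 6.

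Prpf18 (chr2:4622058-4652135) encodes a factor of the second step of splicing, when exons are joined. It stood at 57.8, 58.5 and 41.7 CPM in WTF (52.7 ± 9.48) and at 152, 123 and 172 CPM in KOF (149 ± 24.6). In males it stood at 122, 128 and 149 CPM in WTM (133 ± 14.5) and at 117, 88.1 and 117 CPM in KOM (107 ± 16.6). The 3 WTF libraries lay below the other 9. Its log2 fold change from WTF to KOF was 1.48 ± 0.25 (SE), a 2.80-fold difference (DESeq2 adjusted p = 5.15e-05, edgeR 0.0793). Without WTF 1091 it was 1.35 ± 0.20 (edgeR adjusted p = 0.00475).

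Prpf39 and Prpf19 differed in where WTF 1091 stood. Prpf39, a U1-associated factor, had 34.7, 42.3 and 23.9 CPM in WTF and 68.2, 53.8 and 65.0 CPM in KOF. The groups did not overlap, and its log2 fold change was 0.88 ± 0.27 with all females (edgeR adjusted p = 0.163) and 0.69 ± 0.20 without 1091 (0.0558). Prpf39 was called with all females by the edgeR fit of all 4 groups and by limma-voom. It overlaps Fkbp3 in the annotation, and whether the counting used strand is not given. Prpf19, the ubiquitin ligase at the core of the Prp19 complex and the most abundant member of its family, had 120, 131 and 259 CPM in WTF and 332, 271 and 153 CPM in KOF. Female 1091 lay within the range of KOF, so that the groups overlapped. Its log2 fold change went from 0.56 ± 0.37 (edgeR adjusted p = 0.510) to 1.01 ± 0.28 without 1091, when it passed the edgeR test (0.0455).

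Among the Hnrnp genes, 12 of 15 tested were higher and 3 lower in KOF, with a median log2 fold change of 0.38. None passed edgeR's test in the filtered fit of the 6 females alone, where 6 were at an unadjusted p under 0.05. DESeq2 called 3 of them, and so did edgeR without a filter, namely Hnrnpa2b1, Hnrnpm and Hnrnpul2. The edgeR fit of all 4 groups called these 3 with Hnrnpf and Hnrnph1 (beside 4.35% of genes). Without 1091 the median was 0.36, and 5 members rose and 1 fell by edgeR. Hnrnpm (chr17:33646233-33685458), a splicing regulator whose promoter is printed above, had 266, 275 and 156 CPM in WTF (232 ± 66.1) and 495, 572 and 500 CPM in KOF (522 ± 42.6). Its lowest KOF library exceeded its highest male library of 465 CPM. The log2 fold change was 1.16 ± 0.27 (DESeq2 adjusted p = 0.00273, edgeR 0.109) and 0.95 ± 0.17 without 1091 (edgeR adjusted p = 0.00969).

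Hnrnpa2b1 (chr6:51460434-51470048), which binds RNA in splicing and in mRNA transport, had 231, 296 and 166 CPM in WTF (231 ± 65.3) and 498, 521 and 518 CPM in KOF (512 ± 12.5). WTM had 379, 395 and 515 CPM and KOM 412, 310 and 314 CPM, so WTF was again below the other 9 libraries. The log2 fold change was 1.14 ± 0.26 (DESeq2 adjusted p = 0.00251, edgeR 0.106) and 0.96 ± 0.18 without 1091 (edgeR adjusted p = 0.0114). Hnrnpul2 (chr19:8819401-8834143), a nuclear RNA-binding protein with a role in the DNA damage response, had 116, 128 and 86.6 CPM in WTF and 226, 200 and 218 CPM in KOF. All KOF libraries were above the 6 males, which lay between 153 and 193 CPM, and all WTF libraries below them. Its log2 fold change was 0.94 ± 0.23 (DESeq2 adjusted p = 0.0107, edgeR 0.115) and 0.81 ± 0.17 without 1091 (edgeR adjusted p = 0.0180).

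Hnrnph1 and Hnrnpf encode related proteins that bind runs of G. Hnrnph1 had 35.0, 45.0 and 24.8 CPM in WTF and 57.6, 71.1 and 74.0 CPM in KOF, and Hnrnpf had 36.5, 52.8 and 46.8 CPM against 80.1, 84.3 and 79.5 CPM. Neither gene's groups overlapped. Without 1091 both passed edgeR's test, with log2 fold changes of 0.75 ± 0.21 (edgeR adjusted p = 0.0478) and 0.86 ± 0.21 (0.0279), although DESeq2 without 1091 gave Hnrnph1 an adjusted p of 0.0585, while with all females they were 0.93 ± 0.27 and 0.83 ± 0.23 with edgeR adjusted p of 0.148 and 0.133.

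Hnrnpd, also called AUF1, which binds AU-rich elements, had 40.8, 39.3 and 26.4 CPM in WTF and 50.9, 61.5 and 63.8 CPM in KOF, its highest levels of the 12 libraries. Hnrnpab, an mRNA transport and DNA-binding protein, had 157, 179 and 158 CPM in WTF and 220, 219 and 208 CPM in KOF. Both pairs of groups were apart, yet edgeR's adjusted p without 1091 was 0.100 and 0.208 at log2 fold changes of 0.55 ± 0.19 and 0.36 ± 0.17. Hnrnpk differed less than its spread, with 352, 378 and 505 CPM in WTF and 494, 394 and 436 CPM in KOF. Hnrnpa0, which binds AU-rich mRNA, went the other way, with 167, 164 and 94.3 CPM in WTF and 98.8, 112 and 93.9 CPM in KOF. The groups overlapped only through 1091, without which it fell by 0.70 ± 0.17 on the log2 scale (edgeR adjusted p = 0.0298). Annotated genes overlap Hnrnpab (Phykpl), Hnrnpk (Rmi1), Hnrnpd and Hnrnpf.

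Of the 10 Srsf genes tested, none was called by edgeR in the fit of the 6 females alone or by DESeq2 with all females. In that edgeR fit 2 were at an unadjusted p under 0.05, both higher in KOF. With all females, the edgeR fit of all 4 groups called Srsf2 (beside 4.35% of genes). Limma-voom called Srsf2 and Srsf4 (beside 11.2%). Srsf2, whose promoter is printed above, had 199, 220 and 171 CPM in WTF (196 ± 24.4) and 281, 333 and 388 CPM in KOF (334 ± 53.7). Srsf4 had 42.6, 56.7 and 24.5 CPM in WTF and 80.4, 70.3 and 87.3 CPM in KOF. Both SR proteins bind exonic enhancers, and for both the 3 WTF libraries were below the other 9.

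Srsf2's log2 fold change was 0.75 ± 0.23 (DESeq2 adjusted p = 0.0539, edgeR 0.170) and 0.67 ± 0.19 without 1091 (DESeq2 adjusted p = 0.0178, edgeR 0.0503) and so passed by DESeq2 and missed by edgeR in that setting. It overlaps Mfsd11 in the annotation. Srsf4's was 0.93 ± 0.30 and 0.67 ± 0.21, with edgeR adjusted p of 0.196 and 0.0635. Srsf1, the other abundant SR gene, had 191, 199 and 154 CPM in WTF and 194, 245 and 216 CPM in KOF, with overlap and an edgeR adjusted p of 0.635.

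With all females, 6 of 12 Lsm genes were higher and 6 lower in KOF, at a median log2 fold change of 0.020, and the pair called by DESeq2 went opposite ways. Without 1091 the split was 8 higher and 4 lower, at a median of 0.20. Lsm14a (chr7:34344144-34390026), a component of cytoplasmic P bodies where translation is held back, had 52.7, 58.5 and 57.0 CPM in WTF (56.1 ± 3.02) and 163, 110 and 136 CPM in KOF (136 ± 26.6). Its WTF libraries were tightly grouped, 1091 included, and lay below 71.1 CPM, the lowest of the other 9. The log2 fold change was 1.27 ± 0.23 (DESeq2 adjusted p = 0.000709, edgeR 0.0793) and 1.29 ± 0.21 without 1091 (edgeR adjusted p = 0.00702). Its paralog Lsm14b had 27.4, 36.9 and 103 CPM in WTF and 83.1, 69.6 and 80.1 CPM in KOF, so that 1091 alone lay above KOF. Its log2 fold change was 0.46 ± 0.43 with all females (edgeR adjusted p = 0.664) and 1.26 ± 0.21 without 1091 (0.00702).

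Lsm10 (chr4:126096562-126098584) encodes a ring protein found in the U7 snRNP, which trims the 3′ ends of histone pre-mRNA. It had 26.0, 27.9 and 33.1 CPM in WTF (29.0 ± 3.69) and 16.5, 10.7 and 10.2 CPM in KOF (12.5 ± 3.50), with no overlap. It fell by 1.21 ± 0.28 on the log2 scale (DESeq2 adjusted p = 0.0439, edgeR 0.110) and by 1.07 ± 0.27 without 1091 (edgeR adjusted p = 0.0317). Its partner in the U7 snRNP, Lsm11, was scarcer, with 5.41, 7.50 and 7.01 CPM in WTF and 1.62, 4.05 and 6.02 CPM in KOF. Those groups overlapped, at a log2 fold change of −0.88 ± 0.50 and an edgeR adjusted p of 0.434.

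The ring that caps U6 RNA and its cytoplasmic counterpart contain Lsm4, Lsm5 and Lsm6. Lsm4 had 11.9, 14.1 and 12.4 CPM in WTF and 7.58, 7.73 and 6.02 CPM in KOF, with no overlap, at a log2 fold change of −0.84 ± 0.30 and an edgeR adjusted p of 0.215. Lsm5, with a mean of 5.43 CPM over the 12 libraries, had a log2 fold change of 1.30 ± 0.60 with overlap (edgeR adjusted p = 0.333). Lsm6, the most abundant of the family, had 246, 202 and 500 CPM in WTF and 309, 246 and 230 CPM in KOF. Its direction turned with 1091, from a log2 fold change of −0.29 ± 0.34 to 0.23 ± 0.19, and neither passed edgeR's test (adjusted p of 0.742 and 0.497).

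Of the 10 Snrp genes tested, 3 were higher and 7 lower in KOF with all females, with a median log2 fold change of −0.18 (−0.15 without 1091, with 4 higher and 6 lower). None was called by edgeR or DESeq2 with all females, and limma-voom called Snrpd2. Without 1091, edgeR called Snrpa1 and Snrpd2 higher and Snrpc lower, of which Snrpa1 missed in DESeq2 (adjusted p = 0.103). Snrpd2, an Sm ring protein, had 41.9, 47.4 and 76.4 CPM in WTF and 82.3, 79.2 and 65.0 CPM in KOF. Snrpa1, a U2 protein, had 23.1, 26.7 and 61.8 CPM in WTF and 45.2, 40.5 and 39.1 CPM in KOF. In both, 1089 and 1090 were below KOF and 1091 was not. Without 1091 the log2 fold changes were 0.76 ± 0.20 (edgeR adjusted p = 0.0350) and 0.74 ± 0.20 (0.0423), against 0.44 ± 0.27 and 0.15 ± 0.36 with it.

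Snrpc, a U1 protein at the 5′ splice site, had 32.5, 18.9 and 6.37 CPM in WTF and 8.12, 12.5 and 12.6 CPM in KOF, so that the groups overlapped through 1091. It fell by 1.23 ± 0.32 on the log2 scale without 1091 (edgeR adjusted p = 0.0336). Snrpd3, another Sm protein, had 108, 142 and 150 CPM in WTF and 93.1, 78.4 and 60.2 CPM in KOF without overlap, at −0.80 ± 0.25 with all females and −0.68 ± 0.22 without 1091 (edgeR adjusted p of 0.175 and 0.0707). Of the 2 remaining Sm genes named, Snrpg had 43.3, 42.9 and 71.7 CPM against 39.8, 36.1 and 25.3 CPM at −0.64 ± 0.29 (−0.33 ± 0.22 without 1091), and Snrpe had a log2 fold change of 0.060 ± 0.23. The U2 protein gene Snrpb2 was at −0.14 ± 0.24, with edgeR adjusted p of 0.322, 0.933 and 0.825 for Snrpg, Snrpe and Snrpb2.

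Sf3 was the other family with most members lower in KOF, 5 of 8, with a median log2 fold change of −0.29. None was called by edgeR or DESeq2 with all females, and limma-voom called Sf3a1. Without 1091, 6 of 8 were lower and the median was −0.15. Sf3a1, a U2 subunit needed for the complex to form, had 19.5, 21.0 and 43.0 CPM in WTF and 43.3, 35.7 and 34.3 CPM in KOF. Without 1091, which was among the KOF values, it rose by 0.91 ± 0.22 on the log2 scale (edgeR adjusted p = 0.0264). The abundant branch point subunits were closer between genotypes. Sf3b1 had 116, 160 and 105 CPM in WTF and 146, 145 and 166 CPM in KOF with overlap, and Sf3b2 had 221, 232 and 245 CPM against 168, 217 and 182 CPM without overlap. Their log2 fold changes were 0.25 ± 0.23 and −0.31 ± 0.22, with edgeR adjusted p of 0.671 and 0.537, and without 1091 they were 0.14 ± 0.19 and −0.26 ± 0.18. Sf3b5 had 44.4, 31.2 and 45.9 CPM in WTF and 25.2, 27.6 and 28.3 CPM in KOF at −0.60 ± 0.25 (edgeR adjusted p = 0.279).

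**Figure D2:**
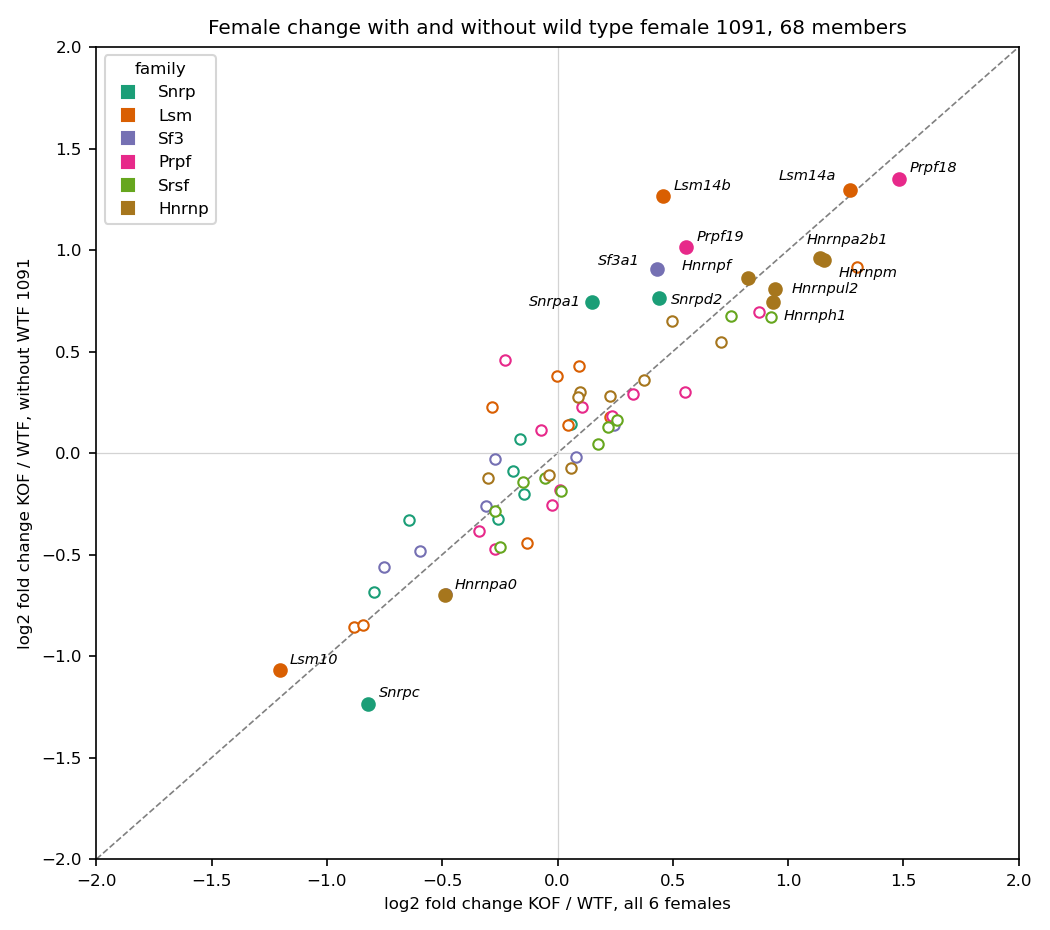
Log2 fold change from WTF to KOF of 68 members with all 6 females (x axis) and without WTF 1091 (y axis), coloured by family, with filled points for members called by edgeR without 1091 and a dashed line where both values are equal. Of the 15 filled points, Prpf18, Lsm14a, Hnrnpa2b1, Hnrnpm, Hnrnpul2 and Lsm10 lie near the line, and Lsm14b, Prpf19, Sf3a1, Snrpa1 and Snrpd2 lie above it.

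Among the members called without 1091, that library stood on different sides. In Lsm14b, Prpf19, Sf3a1, Snrpa1 and Snrpd2, 1091 had at least 1.5 times the level of both other WTF libraries, a feature of 9 of 68 members and of 14.8% of all genes. In Hnrnpa2b1, Hnrnph1, Hnrnpm, Hnrnpul2 and Prpf18, 1091 was instead the lowest of the 12 libraries, and leaving it out made the fold change smaller and its standard error smaller too. Snrpc was also lowest in 1091, at 6.37 CPM, but there leaving it out made the fall larger, to a log2 fold change of −1.23. Leaving out any of the other 5 females in place of 1091 gave 0 called members, and no other gene was called in these fits either (smallest edgeR adjusted p of any gene 0.0690).

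In males no member passed the test. The comparison of KOM with WTM gave 0 calls among 65 members by edgeR and 0 by DESeq2, beside 0% of 8823 genes by edgeR and 0.037% by DESeq2. A single member was at an unadjusted p under 0.05 in edgeR and in DESeq2, 1.54% of 65 beside 4.05% of all genes in edgeR, and 1.39% of 72 beside 1.51% in DESeq2. This was Lsm10, with 19.9, 15.6 and 17.9 CPM in WTM and 29.0, 29.9 and 26.1 CPM in KOM, the direction opposite to that in females, at a log2 fold change of 0.66 ± 0.22 and an edgeR adjusted p of 0.9999. WTM and KOM did not overlap for 2 members higher in KOM, Lsm10 and Sf3a2 (4.45% of all genes), and for 4 lower, Hnrnph1, Lsm5, Prpf18 and Snrpd2 (4.42%). The median log2 fold change of the members was −0.027, beside −0.011 over all genes.

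The difference between the sexes, taken as the female change less the male change, was tested directly. EdgeR called 2 of 68 members, beside 0.255% of 9806 genes, and 18 members were at an unadjusted p under 0.05 beside 14.1% of genes. Prpf18 differed by 1.80 ± 0.30 on the log2 scale (edgeR adjusted p = 0.0460, DESeq2 1.49e-05) and Lsm10 by −1.86 ± 0.34 (edgeR adjusted p = 0.0474, DESeq2 0.00120). DESeq2 called 9 members beside 4.03% of its genes, 8 with the higher change in females (2.26%) and 1 with the lower (1.77%), adding Hnrnpa2b1 (1.47), Hnrnpm (1.33), Hnrnph1 (1.32), Lsm14a (1.20), Prpf39 (1.07), Hnrnpf (1.02) and Hnrnpul2 (0.89). Without WTF 1091, edgeR called 11 members beside 5.15% of genes and DESeq2 called 12 beside 8.22%. Limma-voom called 12 beside 5.69%, and edgeR without a filter 5 beside 1.82%. With any 1 of the other 11 mice left out in its place, edgeR called 0 members, or 1, Prpf18, without WTF 1090. When 1 KOF or KOM mouse, WTM 1086 or WTM 1087 was left out, no other gene was called either (smallest edgeR adjusted p of any gene 0.0743). Without WTF 1089 or WTM 1055 other genes passed, with a smallest edgeR adjusted p of 0.00377 and 0.0342. These tests share their WTF libraries with the comparison of females above and are not independent of it.

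**Figure D3:**
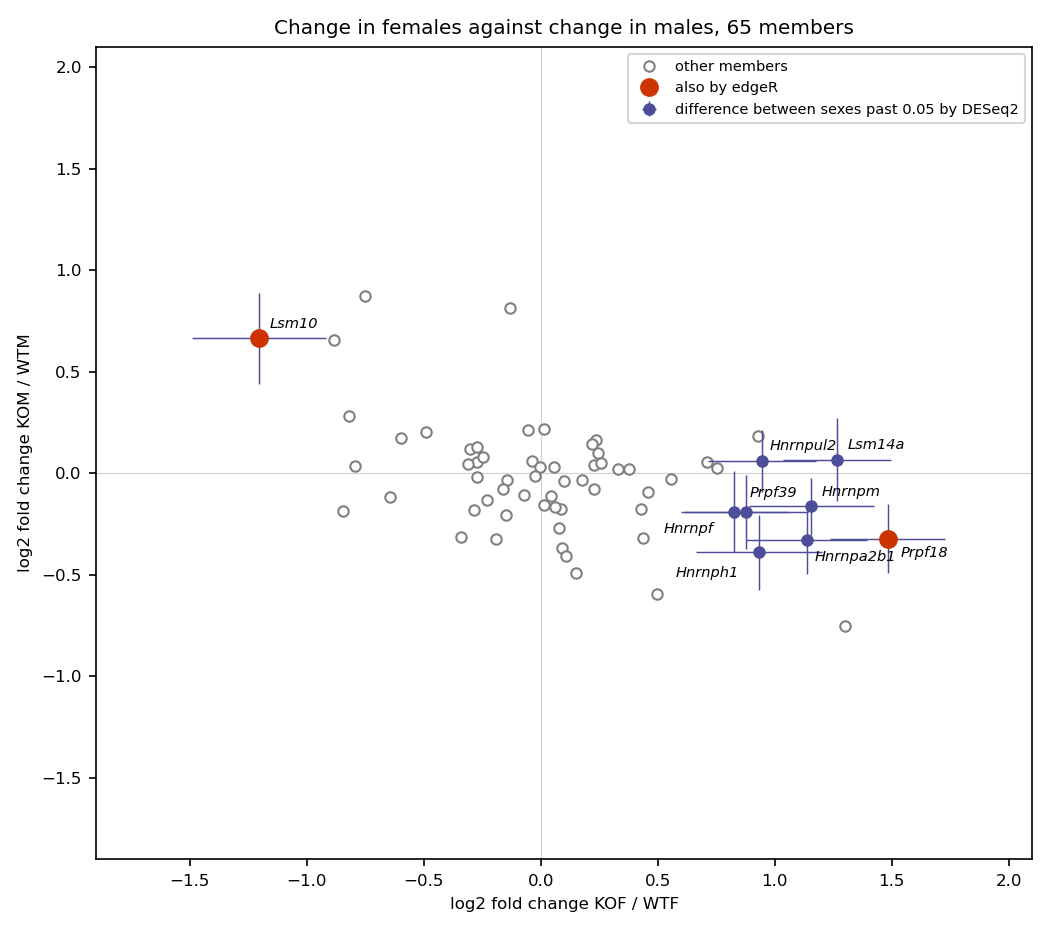
Log2 fold change from WTF to KOF (x axis) against that from WTM to KOM (y axis) for the 65 members tested in both sexes, with SE bars on the 9 whose difference between the sexes passed DESeq2 and red points for the 2 that also passed edgeR. Prpf18 lies at the right with a negative male value, Lsm10 at the left with a positive one, and the other 7 lie to the right with male changes between -0.39 and 0.068.

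The levels show where the groups stood. All 3 WTF libraries lay below the other 9 libraries for 10 members, Hnrnpa2b1, Hnrnpab, Hnrnph1, Hnrnpm, Hnrnpul2, Lsm14a, Prpf18, Prpf39, Srsf2 and Srsf4, which is 14.7% of 68 beside 3.57% of all genes. This pattern was looked for after the values were seen and is given as a description. All 3 KOF libraries lay above the other 9 for Hnrnpd, Hnrnpf, Hnrnpm and Hnrnpul2 (2.45% of all genes), and below them for 0 members (2.51%). All 3 WTF libraries lay above the other 9 for Sf3b2, Sf3b5 and Snrpg (3.66%).

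**Figure D4:**
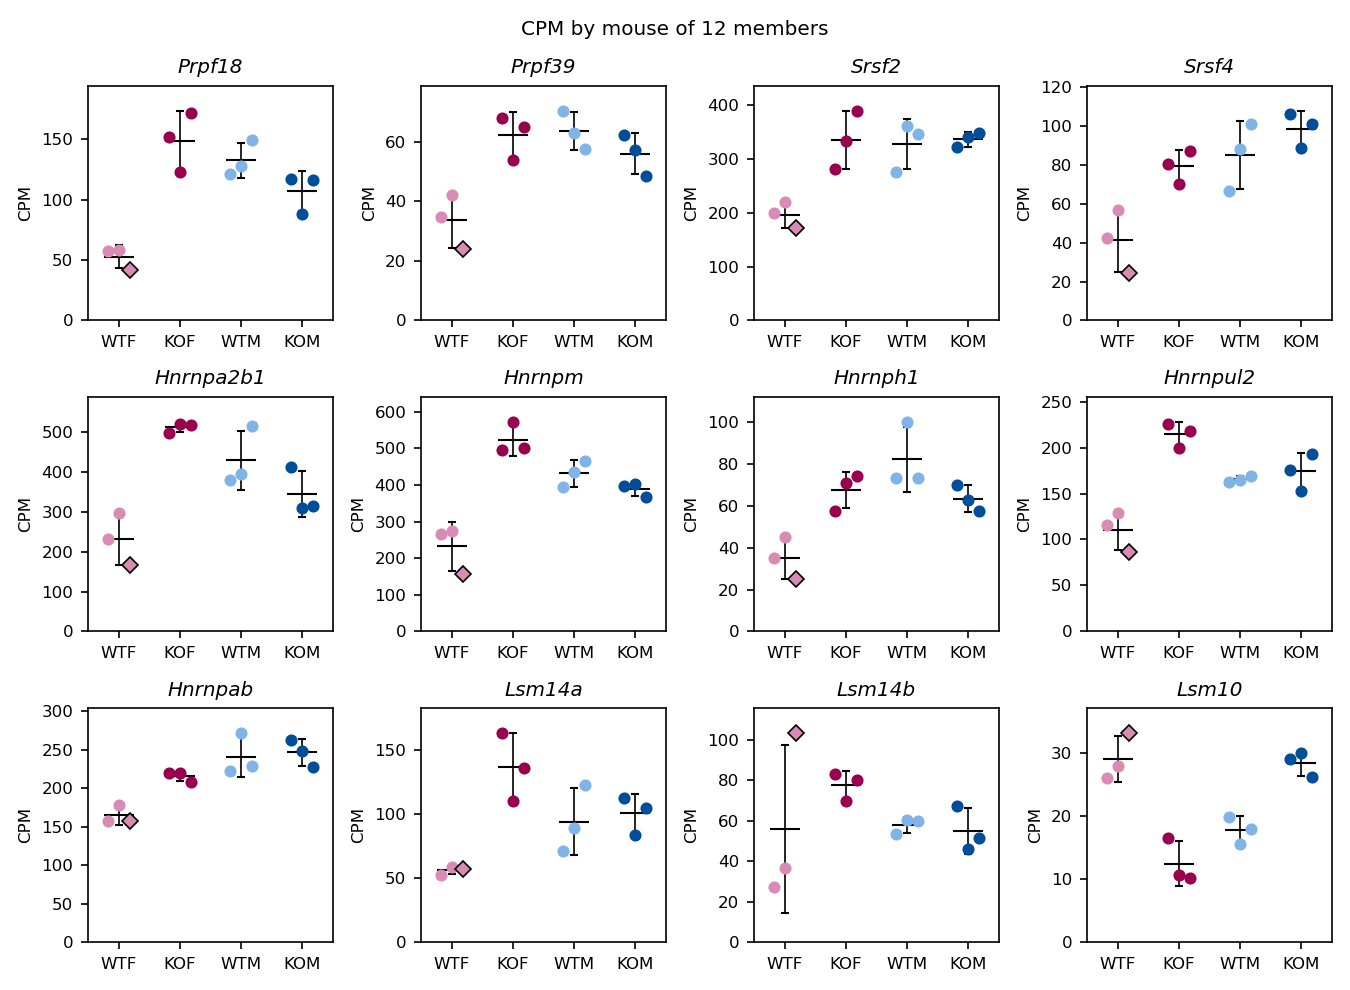
CPM of 12 members in each mouse of the 4 groups, with the mean and SD as a black bar and whiskers and WTF 1091 as a diamond outlined in black. The panels were picked for their patterns and do not stand for all 68 members. In 10 panels, which are all the members with this pattern, all WTF points lie below the others. In the Lsm14b panel 1091 alone is high at 103 CPM, and in the Lsm10 panel KOF and WTM lie below WTF and KOM.

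Wild type females and males were compared in the fit of all 12 libraries, which asked how the members differed by sex without the deletion. EdgeR called 7 of 68 members, all lower in WTF, beside 5.15% of 9806 genes, of which 2.88% were lower. They were Prpf18 (log2 fold change from WTM to WTF −1.34 ± 0.21, adjusted p = 0.00174), Hnrnph1 (−1.23 ± 0.23, 0.00619), Srsf4 (−1.05 ± 0.26, 0.0308), Prpf39 (−0.91 ± 0.23, 0.0307), Hnrnpa2b1 (−0.90 ± 0.22, 0.0314), Hnrnpm (−0.89 ± 0.21, 0.0239) and Srsf2 (−0.74 ± 0.19, 0.0371). DESeq2 called 11, beside 7.15% of its genes, with Hnrnpab, Hnrnpul2 and Lsm14a also lower and Sf3b5 higher in WTF. Without 1091, edgeR called 13 members, 11 lower (6.01% of genes) and 2 higher (4.29%), beside 10.3% in all. DESeq2 without 1091 called 14 beside 11.4%, and limma-voom 13 beside 11.5%. The count also rested on single wild type mice in the other direction, at 3 without WTF 1089, 2 without WTM 1086 and 2 without WTM 1087, where Prpf18 and Hnrnph1 were called each time. These counts have no share of all genes called beside them. At the looser threshold of an unadjusted edgeR p under 0.05, these 3 fits held 27.9%, 25% and 26.5% of members, beside 18.5%, 17.0% and 15.3% of all genes.

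The 2 KO groups differed between the sexes in 2 members by edgeR and 2 by DESeq2, beside 3.59% and 4.77% of genes. Lsm10 was lower in KOF than in KOM, by a log2 difference of −1.15 ± 0.24 (edgeR adjusted p = 0.0144). Prpf38a, a protein of the complex that is about to be activated for splicing, had 10.0, 8.84 and 11.4 CPM in KOF and 1.88, 2.17 and 1.97 CPM in KOM, a 4.92-fold difference (log2 2.30 ± 0.50, edgeR adjusted p = 0.0164). It was scarce in WTM too, at 0.765, 5.03 and 5.26 CPM, and stood at 6.14, 9.90 and 4.14 CPM in WTF. It overlaps Orc1 in the annotation. Each call depended on single mice, with 0 members called when any KOM mouse was left out and 1 when any KOF mouse was, Lsm10 without KOF 1070 and Prpf38a without KOF 1104 or 1105. Other genes passed in each of these fits, and these counts have no share of all genes called beside them. At an unadjusted edgeR p under 0.05, a looser threshold, the fits held 7.35% to 14.7% of members beside 13.3% to 16.4% of all genes. Without 1091, which enters here only through the shared spread, edgeR called 5 beside 9.6% of genes, adding Hnrnpa2b1, Hnrnpd and Snrpe, all higher in KOF. Limma-voom called 6 beside 12.1%, and edgeR with at least 10 counts in every library called 1 beside 3.81%.

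Other genes of RNA processing, outside these families, were counted by group in the female comparison. With all females, edgeR called none of the 42 other spliceosome core genes, 37 regulators of splice site choice, 6 SR protein kinases, 17 exon junction and export genes, 11 snRNP assembly genes and 20 cleavage and polyadenylation genes it tested, and 7, 4, 0, 4, 3 and 2 of them were at an unadjusted p under 0.05. These were 20 of 133 genes, a share below the 15.6% of all genes. DESeq2 called Rbm17 and Alyref, both higher, 1.63% of 123 beside 3.8% of its genes. Without 1091, edgeR called 3, 2, 0, 2, 0 and 1, together 8 of 132 or 6.06% beside 9.64% of all genes. Together the lists held no larger share of calls in females than all genes did, and the genes below are given singly. Rbm17, which binds U2-associated factors at the 3′ splice site, had 192, 191 and 220 CPM in WTF and 523, 405 and 521 CPM in KOF, a log2 fold change of 1.33 ± 0.19 without 1091 (edgeR adjusted p = 0.00381). Its WTF libraries lay below the other 9, whose lowest was 278 CPM.

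Alyref, an mRNA export adaptor, had 7.22, 5.40 and 1.91 CPM in WTF and 14.6, 23.6 and 16.3 CPM in KOF, and rose by 1.53 ± 0.33 on the log2 scale without 1091 (edgeR adjusted p = 0.0192). Snrnp70, which encodes the U1 protein U1-70K, and the SR-like gene Tra2b also rose without 1091, by 0.96 ± 0.18 and 0.76 ± 0.19 (edgeR adjusted p of 0.0104 and 0.0324). Lower without 1091 were Cpsf3, the nuclease of cleavage and polyadenylation, at −1.19 ± 0.24, the intron-binding helicase Aqr at −1.14 ± 0.30, U2af2, which reads the polypyrimidine tract, at −0.98 ± 0.28, and the exon junction gene Rbm8a at −0.73 ± 0.18, with edgeR adjusted p of 0.0150, 0.0370, 0.0471 and 0.0283. For Rbm17 and Alyref, the difference between the sexes also passed edgeR's test (1.46 ± 0.29 and 2.82 ± 0.55, adjusted p = 0.0474 for both), 2 of 133 genes beside 0.255% of all genes.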

How the data were processed

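Liver RNA of 12 mice was profiled by QuantSeq. Trimming, mapping and counting were done by the authors in BaseSpace (Illumina), and they deposited raw counts per gene in 2 tables, 1 per sex. The submitters' processing notes name STAR, DESeq and mm10, without versions. Annotation and strand setting are not stated. Columns were matched to samples by mouse number.

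Two-sided quasi-likelihood tests were run on whole tables with edgeR 4.0.16 in R 4.3.3 after filterByExpr and TMM scaling, with Benjamini-Hochberg adjustment over all genes tested and a threshold of 0.05. Each sex was fitted alone for KO against wild type, and all 12 libraries together for the other 3 comparisons. Alternatives were DESeq2 1.42.0, limma 3.58.1 voom with quality weights, a fit of all 4 groups, RLE scaling, each mouse left out, a minimum of 10 counts in each library, and no filter other than 1 count. Genes with no adjusted p from DESeq2 are left out of its counts. CPM are counts per 1000000 of the TMM-scaled library size, with no prior. SE are those of the log2 fold change, and SD are over 3 mice. Statistics were checked on simulated data. The study's methods mention no molecular identifiers on the tags.

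Members, lists of other RNA processing genes, markers and tests were chosen with earlier results of these data known. Named were members called by edgeR or DESeq2 in any comparison or by edgeR without WTF 1091, the 20 with the smallest female edgeR p, the 5 smallest in each other comparison and the 2 most abundant of each family. Positions and promoters are from RefSeq on GRCm38.p6, matched by symbol, positions for all 74 members and promoters for 64. Figures used Python 3.11.15, pandas 2.3.3, numpy 2.4.6 and matplotlib 3.10.9.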

Additional observations from a re-analysis of the deposited data

Results flagged for a closer look

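The female change less the male change passed edgeR's test for 2 members. It was 1.80 on the log2 scale for Prpf18, where KOF stood above WTF by 1.48 and KOM stood at -0.32 relative to WTM. It was -1.86 for Lsm10, where KOF stood at -1.21 relative to WTF and KOM at 0.66 relative to WTM. These changes within each sex come from the fit of that sex alone. Neither male value passed after adjustment. The Prpf18 call held without WTF 1090 and without WTF 1091, the Lsm10 call without WTF 1091, and both were lost when any 1 of the other mice was left out. No gene at all was called when 1 KOF or KOM mouse, WTM 1086 or WTM 1087 was left out.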

How the results depend on the processing

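The female comparison depended most on the processing. Beside 0 members called by edgeR, 6 were called by DESeq2, 13 by DESeq2 without WTF 1091, 10 in the fit of all 4 groups, 16 by limma-voom with quality weights and 6 without a filter, and 0 to 15 when 1 mouse was left out, the 15 without WTF 1091. RLE scaling and at least 10 counts in every library gave 0, and called no other gene. For the difference between the sexes, 2 calls became 9 by DESeq2, 12 by DESeq2 without WTF 1091, 12 by limma-voom, 5 without a filter and 0 to 11 with 1 mouse left out. For WTF against WTM, 7 became 11, 14 and 13 by DESeq2, DESeq2 without WTF 1091 and limma-voom, and 2 to 13 with 1 mouse left out. For KOF against KOM, 2 became 1 with at least 10 counts in every library, 6 by limma-voom and 0 to 1 with 1 mouse left out, and 5 without WTF 1091 in the spread, a setting added after the data were seen. In males every setting gave 0. The cause was not tested. Without WTF 1091 the spread was smaller, and the WTF means of members moved as well.

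For the female change of 34 named members, 436 values under other settings were computed. Of these, 361 had the same direction and side of the threshold as the edgeR value, 66 passed the threshold where it had not, and 9 turned direction, none of them past it. The members concerned, with all their values under these settings, were Lsm6 (0.24 by DESeq2 without WTF 1091, 0.13 by limma-voom and -0.53 to 0.23 with 1 mouse left out) and, with 1 mouse left out, Hnrnpk (-0.020 to 0.27), Snrpa1 (-0.10 to 0.74), Snrpb2 (-0.26 to 0.015) and Snrpe (-0.056 to 0.17). No paired analysis was made because the sample labels state no pairing of mice between groups.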
